A study of Mus musculus with 12 samples.

Results

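miR-146a and miR-155, the microRNAs best known from innate immune signalling, were followed in exosomes of mouse hepatocytes. They were taken by name as the 4 rows of both hairpin arms, mmu-miR-146a-5p, mmu-miR-146a-3p, mmu-miR-155-5p and mmu-miR-155-3p (without the prefix for mouse below), out of 1965 mature mouse miRNAs listed. Exosomes are small vesicles that cells release. The RNA came from primary hepatocytes at passage 0, cultured in Williams' E medium that held fetal bovine serum and glutamax. The cells carried a control label (lean, written NCD in the library descriptions) or a label for 4 weeks or 16 weeks of high-fat diet (HFD). Each of these groups had 4 libraries, 12 in all. The labels give no strain, sex or age and do not tell separate animals from repeat preparations, so p-values measure the spread between these libraries, which may be technical. Values are in CPM, the reads of a miRNA scaled to a total of 1000000 miRNA reads in its library. Of the 4 rows, 3 were above 0 in at least 1 library, and those 3 were tested.

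Inflammatory signals that act through Toll-like receptors and NF-kB induce the transcription of miR-146a, which represses the adaptor mRNAs Irak1 and Traf6 and so feeds back on the pathway. miR-155 is cut from the long noncoding RNA Mir155hg, rises in activated macrophages and lymphocytes, and represses Socs1 and Inpp5d, brakes on cytokine and phosphoinositide signalling. In the liver both are studied in hepatocytes and in resident and recruited immune cells during fatty liver disease. A hairpin yields a 5p and a 3p arm, of which the arm loaded into Argonaute guides silencing and the other, the passenger, is mostly degraded.

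The mature sequences of the 4 arms, from RefSeq on GRCm38.p6, are shown because the arms of a hairpin have unlike seeds and so unlike targets. Letters run 5′ to 3′ and capitals mark the seed, bases 2 to 8. miR-146b-5p is added as the only other miRNA of the RefSeq table with the seed of miR-146a-5p, and none shared the seed of the other 3 arms.
miR-146a-5p: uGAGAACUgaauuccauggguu
miR-146a-3p: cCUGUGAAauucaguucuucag
miR-155-5p: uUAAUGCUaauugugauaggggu
miR-155-3p: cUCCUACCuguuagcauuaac
miR-146b-5p: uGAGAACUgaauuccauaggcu
miR-146a-5p and miR-146b-5p are 22 bases long and differ only by the substitutions G18A and U21C, counted from the 5′ end with the base of miR-146a-5p first.

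The hairpins show where the arms lie, with both arms in capitals.
Mir146: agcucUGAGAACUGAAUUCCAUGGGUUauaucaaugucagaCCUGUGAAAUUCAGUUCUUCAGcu
Mir155: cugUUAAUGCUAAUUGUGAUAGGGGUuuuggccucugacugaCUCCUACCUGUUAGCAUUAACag
On mm10 (GRCm38) the 65-base Mir146 hairpin lies on the minus strand at chr11:43374397-43374461, with the 5p arm at chr11:43374435-43374456. In the GENCODE annotation it overlaps no gene entry but its own. The 65-base Mir155 hairpin lies on the plus strand at chr16:84714140-84714204, inside exon 2 of the lincRNA gene Mir155hg, which spans chr16:84703167-84715245.

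The libraries were shallow and unequal. Of 2664 values above 0, 2617 were whole multiples of the CPM of 1 read in their library (the exceptions are described with miR-155-5p and miR-486a-5p), and on this basis a lean library held 13748 to 30430 miRNA reads. The range was 2352 to 4477 reads after 4 weeks of HFD and 20538 to 37596 after 16 weeks. A single read was worth 32.9 to 72.7, 223 to 425 and 26.6 to 48.7 CPM in the 3 groups. miR-101b-3p took 54.8 to 70.2% of the CPM in lean libraries, 15.9 to 36.8% at 4 weeks and 52.4 to 66.3% at 16 weeks. Because the CPM of every other miRNA depends on that share, values with miR-101b-3p taken out of the total are given beside the main ones. The liver's defining miRNA, miR-122-5p, was listed at group means of only 10.4, 0 and 19.2 CPM in the same order. Of the 1965 listed miRNAs, 618 were above 0 in any library. The deposited table is described as one of unique mouse miRNAs, and which miRNAs this leaves out is not given in the sources used here, so a value at or near 0 below may reflect that selection and is not read as absence from the vesicles.

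miR-146a-5p, the guide arm, was higher in exosomes of both HFD groups than in lean ones. In the lean libraries 1 to 4 it stood at 2837, 3253, 1797 and 8997 CPM (39, 99, 43 and 132 reads). At 4 weeks of HFD the values were 26417, 17007, 10275 and 24888 CPM (103, 40, 46 and 83 reads). All 4 lean libraries lay below all 4 of the 4-week libraries, the closest being lean replicate 4 and 4-week replicate 3. How many of all tested miRNAs separated the groups in this way, here or in the comparisons below, was not counted. In bulk RNA, more vesicles that carry a miRNA and more copies per vesicle cannot be told apart.

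At 16 weeks of HFD, miR-146a-5p reached 22955, 25557, 43294 and 40364 CPM (863, 748, 1012 and 829 reads). These too lay above every lean library, while they overlapped the 4-week values, with replicates 3 and 4 above all of them and none below. The mean level (± SD, n = 4 per group) was 4221 ± 3243 CPM in lean libraries, 19647 ± 7486 CPM after 4 weeks and 33042 ± 10271 CPM after 16 weeks, which makes the 4-week mean 4.65-fold and the 16-week mean 7.83-fold the lean mean. In rank among all miRNAs of a library it moved from places 13 to 34 in lean to 7 to 14 at 4 weeks and to 3 or 4 at 16 weeks.

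Counting error alone was smaller than the steps over lean, except between the closest 2 libraries. The exact 95% interval for the reads of lean replicate 4, the highest lean library, ran from 7533 to 10661 CPM, and that for 4-week replicate 3, the lowest HFD library, from 7532 to 13682 CPM. These 2 libraries therefore could not be separated by counting, whereas lean replicates 1 to 3 had upper bounds of at most 3959 CPM. Such intervals cover counting error only, since reads without molecular identifiers are not independent molecules.

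**Figure D1:**
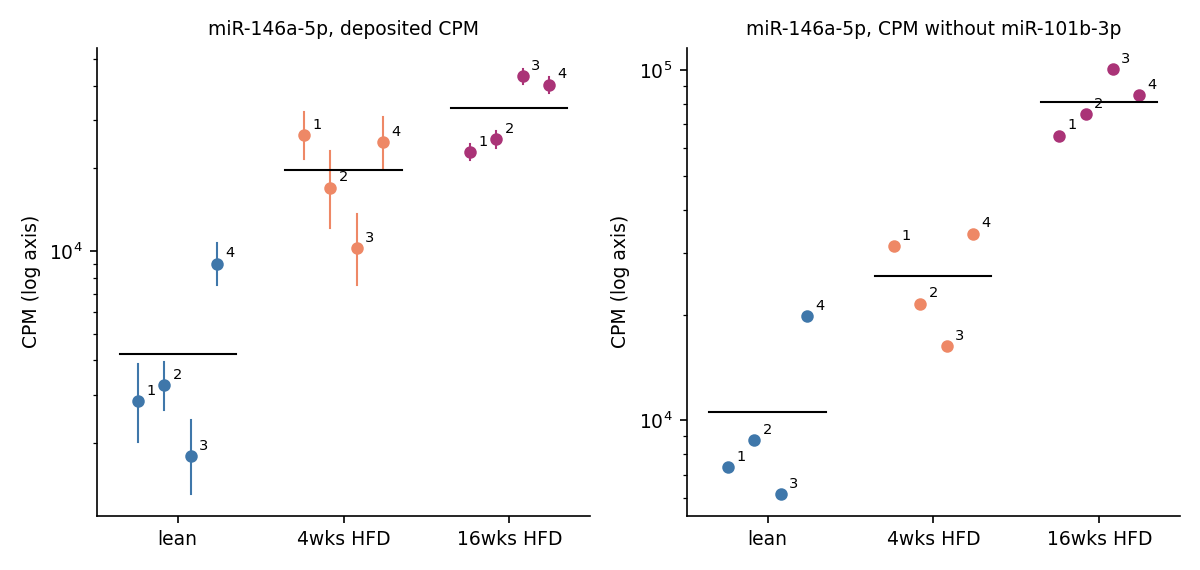
miR-146a-5p in CPM on log axes in the 12 libraries, as deposited (left, bars are exact 95% intervals for counting error) and with miR-101b-3p taken out of the total (right). Points are libraries with their replicate numbers and black lines are group means, at 4221, 19647 and 33042 CPM on the left and 10540, 25845 and 81378 CPM on the right.

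In limma's fit on log2(CPM + 1) over the 267 miRNAs that reached 10 CPM in 4 or more libraries, miR-146a-5p rose by 2.40 on the log2 scale at 4 weeks against lean (SE 0.47, 95% interval 1.40 to 3.40, Benjamini-Hochberg adjusted p = 0.0030). At this threshold of 0.05, 9.36% of the tested miRNAs were called higher in that comparison. At 16 weeks against lean it rose by 3.19 (interval 2.18 to 4.19, limma adjusted p = 0.0014), where 1.12% of the tested miRNAs were called higher. It was the 31st highest fold of the 267 in the first comparison and the 26th in the second, and the median fold over all of them was -1.27 and -0.18. From 4 to 16 weeks the difference was 0.79 (interval -0.21 to 1.79, limma adjusted p = 0.28) and was not called, against 6.37% of miRNAs called higher and a median of 1.13. The medians of all tested miRNAs depended on the 1 CPM added before the log. With 100 CPM added in its place they were -0.13, -0.083 and -0.027 in the same order. Of the 3 tested arms as deposited, limma thus called 1 higher than lean at each time, and 0 between the HFD groups. Between the HFD groups miR-146a-3p and miR-155-5p had an unadjusted p under 0.05, as did 79 of the 267 miRNAs. So did miR-146a-3p at 4 weeks against lean, where 93 of the 267 did, and miR-155-5p at 16 weeks against lean, where 50 did.

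The last comparison turned on the scaling. With miR-101b-3p out of the total, miR-146a-5p averaged (± SD, n = 4 per group) 10540 ± 6304 CPM in lean libraries, 25845 ± 8373 after 4 weeks and 81378 ± 15247 after 16 weeks. On this scale it rose by 1.70 from 4 to 16 weeks (limma adjusted p = 0.0091), and every 16-week library, at 65004 CPM or more, lay above every 4-week library, at 34170 CPM or less. The 4-week rise over lean shrank to 1.39 (limma adjusted p = 0.016) and lean replicate 4, at 19858 CPM, then lay above 4-week replicate 3, at 16264 CPM. The 16-week rise over lean was nearly as large, at 3.09 (limma adjusted p = 0.00024). The same change of scale moved the median fold of all tested miRNAs to -2.05, -0.23 and 1.78 in the 3 comparisons. It moved the calls at 4 weeks against lean from 25 higher and 31 lower to 13 and 50, and those from 4 to 16 weeks from 17 higher and 11 lower to 28 and 6.

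Count models on whole reads (with miR-155-5p completed, as described below) placed the 3 groups in the same order. edgeR, which tested 75 miRNAs after its own filter and scaled the libraries itself, gave miR-146a-5p a rise of 1.79 at 4 weeks against lean (adjusted p = 0.00098), of 3.03 at 16 weeks against lean (adjusted p = 4.1e-06) and of 1.24 from 4 to 16 weeks (adjusted p = 0.018). The shares of the 75 that edgeR called higher were 25.3%, 17.3% and 21.3%. Each edgeR call was made with any 1 of the 12 libraries left out, with adjusted p up to 0.015, 3.3e-05 and 0.030.

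miR-146a-3p, the passenger arm, was read 21 times over all 12 libraries. The lean libraries held 218, 32.9, 41.8 and 341 CPM (3, 1, 1 and 5 reads), and the 16-week libraries 79.8, 103, 128 and 48.7 CPM (3, 3, 3 and 1 reads). At 4 weeks it was at 0, 0, 223 and 0 CPM, a single read in replicate 3. The groups overlapped in each comparison, and a level of up to 213 CPM in the 4-week group (3 reads over the group) would have been compatible with no read.

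No change of miR-146a-3p was called. limma gave differences of -4.72 at 4 weeks against lean (adjusted p = 0.078), -0.25 at 16 weeks against lean (adjusted p = 0.97) and 4.47 between 4 and 16 weeks (adjusted p = 0.12). The shares of miRNAs called lower in the 3 comparisons were 11.6%, 1.5% and 4.12%. The first and the last are set by the pseudocount of 1 CPM in libraries at 0 and are not fold changes of a measured level. Without 4-week replicate 3, the only 4-week library with a read, they became -6.67 (adjusted p = 0.0068) and 6.42 (adjusted p = 0.013).

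The passenger arm made up a smaller share of the hairpin's reads at 16 weeks than in lean. Its share of both arms was 7.14, 1.00, 2.27 and 3.65% in the lean libraries and 0.346, 0.399, 0.296 and 0.120% in the 16-week libraries. All 4 lean libraries lay above all 4 of the 16-week libraries, without a test. In lean replicates 2 and 3 a single 3p read gave 1.00 and 2.27%, already above every 16-week share. Their exact binomial 95% intervals (0.0253 to 5.45% in replicate 2) overlapped those of the 16-week libraries, which reached up to 1.163%. The intervals of lean replicates 1 and 4 began higher, at 1.498 and 1.195%. The order of single libraries thus depends in part on the low read numbers in lean. Pooled, 10 of 323 reads in lean were miR-146a-3p (3.10%, exact binomial 95% interval 1.49 to 5.62%), against 10 of 3462 at 16 weeks (0.289%, 0.139 to 0.531%). At 4 weeks it was 1 of 273 reads (0.366%, 0.009 to 2.02%). The pooled intervals cover counting error only and leave out the spread between libraries. The lean and 16-week groups held 82781 and 110777 miRNA reads in all, so their equal numbers of 3p reads came from similar pooled depths.

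**Figure D2:**
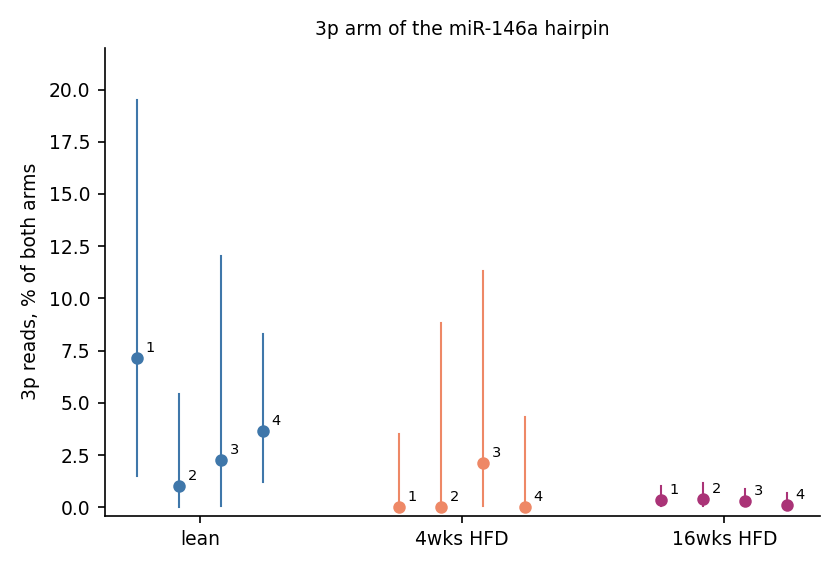
Share of miR-146a-3p in the reads of both miR-146a arms (percent, linear axis from 0) in the 12 libraries, with replicate numbers; bars are exact binomial 95% intervals. The lean points lie between 1.00 and 7.14%, the 16-week points between 0.120 and 0.399%, and 3 of the 4-week points at 0.

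miR-146b-5p, the guide arm of the sister locus, was listed at 0 in all 12 libraries. With 2 bases of difference from miR-146a-5p, how the authors assigned its reads is not known here. miR-146b-3p was at 72.7, 131, 0 and 0 CPM in lean, 0, 0, 0 and 300 CPM at 4 weeks and 53.2, 34.2, 0 and 0 CPM at 16 weeks, and its reads were 5, 1 and 3 per group. Its limma adjusted p lay between 0.75 and 0.95 over the 3 comparisons.

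The deposited values of miR-155-5p needed a check before use. As deposited, the lean libraries stood at 851, 1622, 1048 and 5502 CPM, the 4-week libraries at 4873, 3827, 1117 and 6597 CPM (19, 9, 5 and 22 reads), and the 16-week libraries at 145, 526, 0 and 886 CPM. None of the 7 lean and 16-week values above 0 was a whole number of reads of its own library. This held for 7 miRNAs of the table, miR-155-5p among them. The other 548 miRNAs with a value above 0 in lean or 16-week libraries had 1985 such values, all of them whole as deposited and none when exchanged.

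When the values of the 7 miRNAs were exchanged between lean and 16-week libraries of the same replicate number, 44 of their 46 values became whole reads (relative tolerance 1e-06). The other 2 were miR-155-5p in 16-week replicates 2 and 3, at 47.5 and 24.5 reads. After the exchange these columns summed to 998000 and 996000 CPM, 2000 and 4000 CPM short of the total of 1000000. Adding exactly these amounts to miR-155-5p made it 106 and 118 whole reads. The 3 readings of miR-155-5p given here are as deposited, exchanged, and exchanged with the missing CPM added (completed). The third was chosen after the values were seen, and the files do not state which is right.

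In the exchanged and completed readings the lean libraries held 145, 526, 0 and 886 CPM (2, 16, 0 and 13 reads). The 4-week values are the same in all readings, and all 4 then lay above all 4 lean libraries. In the completed reading the 16-week libraries held 851, 3622, 5048 and 5502 CPM (32, 106, 118 and 113 reads), where replicate 1 fell just under lean replicate 4 and the other 3 above every lean library. In the exchanged reading they held 851, 1622, 1048 and 5502 CPM.

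The order of the groups depended on the reading. As deposited, the means (± SD, n = 4 per group) were 2256 ± 2189 CPM for lean libraries, 4103 ± 2295 after 4 weeks and 389 ± 399 after 16 weeks. Exchanged, the lean and 16-week means changed places. Completed, the 16-week mean was 3756 ± 2096 CPM, 9.65-fold the lean mean of 389 CPM, while the 4-week mean was 10.5-fold the lean mean. In that reading the 16-week mean was within 1 SD of the 4-week mean, and all but 1 of the 16-week values lay inside the 4-week range.

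**Figure D3:**
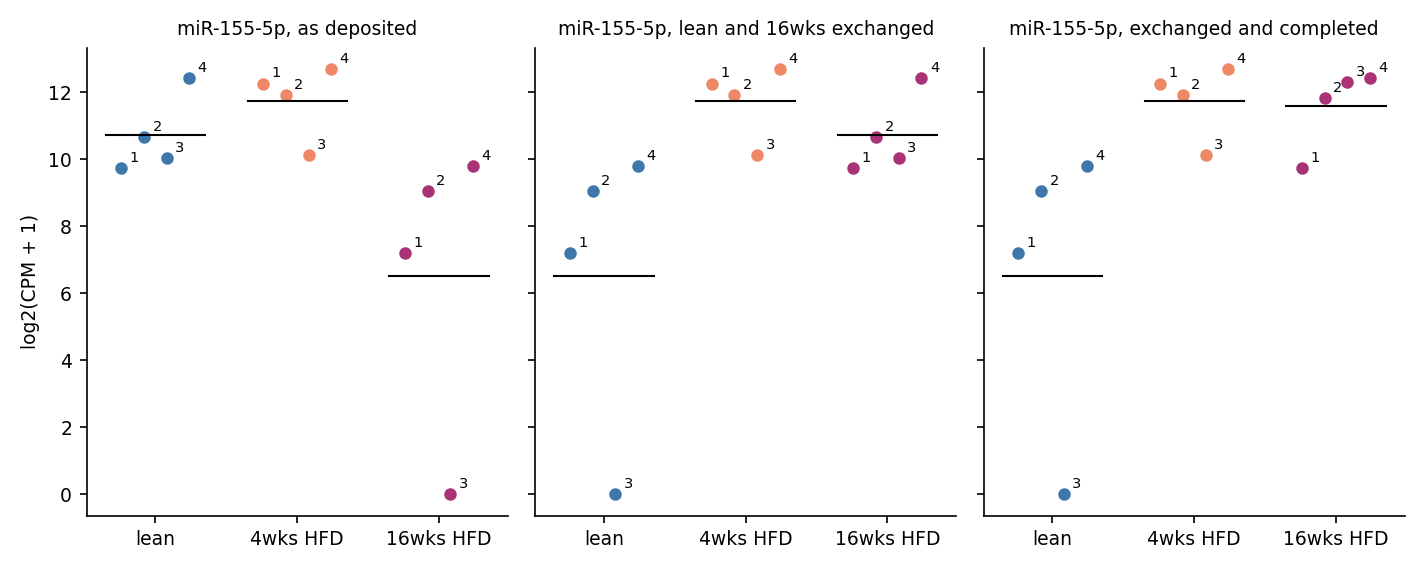
miR-155-5p as log2(CPM + 1) in the 12 libraries in the 3 readings, as deposited, with the lean and 16-week values exchanged, and exchanged and completed. Points are libraries with replicate numbers and black lines are group means of log2(CPM + 1); the 4-week points are the same in each panel, and 1 library, 16-week replicate 3 as deposited or lean replicate 3 otherwise, is at 0.

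On the deposited values, limma called no change of miR-155-5p. The differences were 1.03 at 4 weeks against lean (95% interval -2.51 to 4.57, adjusted p = 0.70), -4.21 at 16 weeks against lean (-7.75 to -0.67, adjusted p = 0.17) and -5.23 from 4 to 16 weeks (-8.77 to -1.70, adjusted p = 0.057). All 4 of the 16-week libraries as deposited lay below all 4 of the 4-week libraries.

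In the exchanged reading miR-155-5p rose by 5.23 at 4 weeks against lean (interval 1.70 to 8.77, limma adjusted p = 0.035), with 9.74% of the tested miRNAs called higher. At 16 weeks against lean the difference was 4.21 (0.67 to 7.75, limma adjusted p = 0.17) and was not called, with 0.749% of miRNAs called higher. Between 4 and 16 weeks it was -1.03 (-4.57 to 2.51, limma adjusted p = 0.72), with 11 of the 267 miRNAs called lower. In the completed reading the 3 differences were 5.23 (limma adjusted p = 0.034), 5.06 (interval 1.53 to 8.59, limma adjusted p = 0.11) and -0.17 (-3.70 to 3.36, limma adjusted p = 0.96). The difference of 5.06 was the highest of the 267 miRNAs at 16 weeks against lean.

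These folds rest heavily on lean replicate 3, which had no read of miR-155-5p after the exchange. Without it, the 4-week difference was 3.07 (limma adjusted p = 0.023 exchanged, 0.022 completed) and the completed 16-week difference 2.90 (limma adjusted p = 0.12). The 4-week call of limma was lost in both readings without 4-week replicate 1 (adjusted p = 0.077 exchanged, 0.076 completed), 2 (0.054 in both) or 4 (0.068 in both), and without 16-week replicate 2 (0.058 in both). In the completed reading it was also lost without 16-week replicate 4 (0.052), and without lean replicate 4 the 16-week difference of 6.16 was called (0.043).

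edgeR on the completed reads, which does not use a pseudocount of 1 CPM, gave smaller folds with smaller p-values. miR-155-5p rose by 2.88 at 4 weeks against lean (adjusted p = 0.0015) and by 3.28 at 16 weeks against lean (adjusted p = 0.00078). Both calls were made in each of the 12 fits that left out 1 library, with folds of 2.32 to 3.53 and 2.88 to 4.09. The difference between 4 and 16 weeks was 0.40 (adjusted p = 0.61), not called in any of the 12. In the exchanged reading miR-155-5p was left out of the count fits because 2 of its values are not whole reads.

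**Figure D4:**
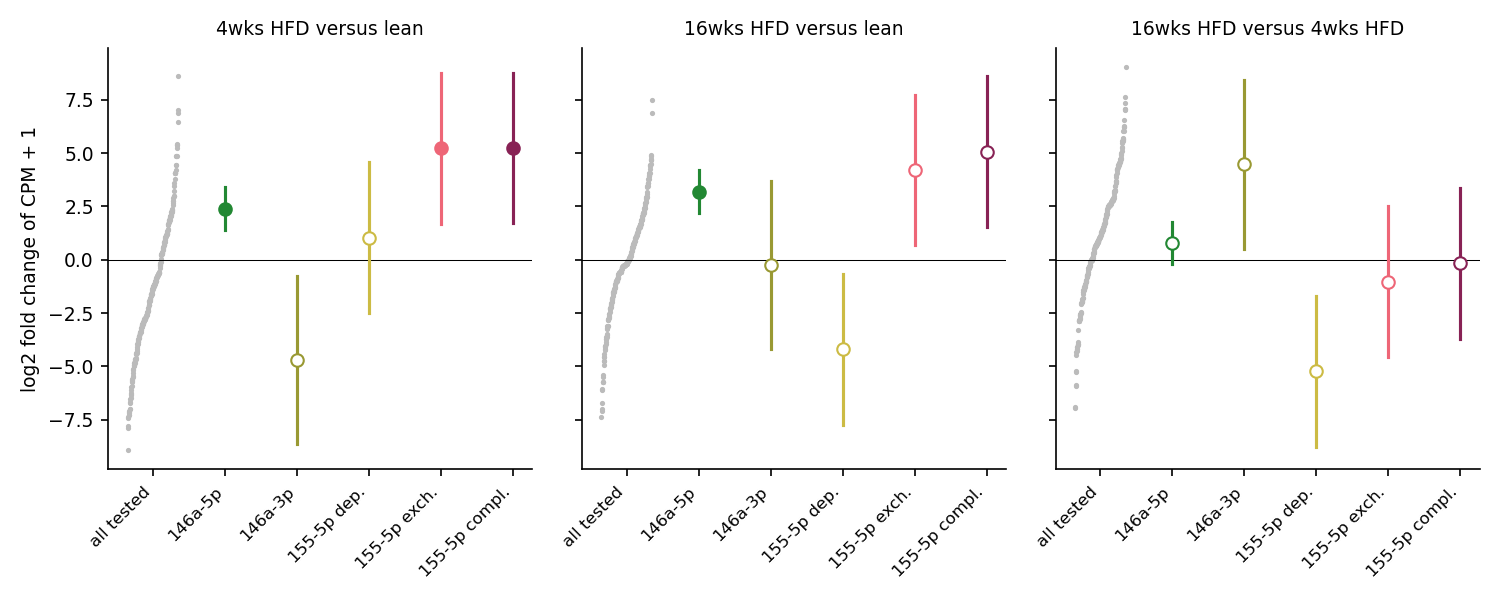
log2 fold changes of CPM + 1 by limma in the 3 comparisons. Grey points are all 267 tested miRNAs in order, coloured points the tested arms (miR-155-5p in its 3 readings: dep., exch., compl.) with 95% intervals that are not adjusted for multiple testing; filled points have an adjusted p under 0.05, which in the first panel are miR-146a-5p and the exchanged and completed miR-155-5p, in the second miR-146a-5p alone, and in the third none.

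miR-155-3p was at 0 in all 12 libraries. Against 455 reads of miR-155-5p in the completed reading, 0 reads allow a 3p share of up to 0.659% (3 reads of the total). The miR-146a hairpin held 21 3p reads among 4058 (0.517%, exact binomial 95% interval 0.321 to 0.790%), so at this depth the 0 of miR-155-3p does not separate the arm use of the hairpins.

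The balance of the pair of guide arms was read within libraries, where the scaling cancels for values of the same library. Counting error does not cancel. The ratios rest on as few as 5 reads of miR-155-5p in 4-week replicate 3 and 2 in lean replicate 1 (completed). miR-146a-5p exceeded miR-155-5p in each library and each reading. At 4 weeks it was 5.42, 4.44, 9.20 and 3.77 times as abundant. In the completed reading the ratio was 19.5, 6.19 and 10.2 in lean replicates 1, 2 and 4 and 27.0, 7.06, 8.58 and 7.34 at 16 weeks, so the lean and 16-week libraries overlapped. In the exchanged reading the lean ratios were the same and the 16-week ratios were 27.0, 15.8, 41.3 and 7.34. There the miR-155-5p values of 16-week replicates 2 and 3 are not whole reads. As deposited, the lean ratios were 1.64 to 3.33 and the 16-week ratios 45.6 to 158 in the 3 libraries above 0. In these the scaling may not cancel, because the miR-155-5p values are not whole reads of their library.

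The miRNAs whose log2(CPM + 1) was most like that of miR-146a-5p over the 12 libraries were miR-24-2-5p (Pearson r = 0.92), miR-503-5p (0.91), miR-322-5p (0.89), miR-700-3p (0.88) and miR-192-5p (0.86). They are described without a test, since the libraries share groups and depth. miR-24-2-5p averaged 4502 CPM in lean libraries, 16530 after 4 weeks and 13992 after 16 weeks, and was called by limma against lean at 4 weeks (2.02, adjusted p = 0.0053) and at 16 weeks (1.85, adjusted p = 0.036). miR-503-5p, at 416, 1657 and 1641 CPM, was called at 4 weeks (2.10, limma adjusted p = 0.019) and not at 16 weeks (2.10, limma adjusted p = 0.063). miR-155-5p as deposited stood in the 189th place of this order, with r = -0.30.

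For miR-155-5p in the exchanged reading the closest were miR-700-3p (r = 0.93), miR-7672-5p (0.93), miR-215-5p (0.87), miR-322-5p (0.87) and miR-503-3p (0.84). miR-146a-5p was 9th at r = 0.79, and 5th at r = 0.85 in the completed reading. miR-700-3p and miR-322-5p were thus among the closest 5 of both guide arms. limma called neither against lean at 4 weeks (2.08, adjusted p = 0.075, and 1.86, adjusted p = 0.15).

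limma called no tested member of a list of other miRNAs of inflammatory signalling. The list of 23 arms (miR-146b, miR-21a, miR-9, miR-125a and b, miR-132, miR-212, miR-147, miR-187, miR-221 and miR-222) had 16 members at 0 in every library and 5 that were tested. Of these 5, limma called 0 in each comparison, against 56, 7 and 28 of all 267 tested miRNAs. The median differences of the 5 were -0.15, 0.56 and 0.85, against -1.27, -0.18 and 1.13 for all tested miRNAs. The medians of all tested miRNAs depended on the added 1 CPM, as described with miR-146a-5p. At an unadjusted p under 0.05, limma passed 0 of the 5 in each comparison, against 93, 50 and 79 of the 267. With so few members tested, these counts do not set the list apart from the other miRNAs. Of the 3 list members that edgeR tested, it called miR-21a-3p lower at 4 weeks than in lean (-1.88, adjusted p = 0.0067), with 33.3% of its 75 miRNAs called lower, and none at 16 weeks against lean. Between the HFD groups it called miR-21a-5p (1.37, adjusted p = 0.0048) and miR-125b-2-3p (1.28, adjusted p = 0.012) higher, with 21.3% of the 75 called higher and 18.7% lower.

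miR-21a-5p, a miRNA of inflammation and fibrosis, averaged (± SD, n = 4 per group) 5337 ± 2841 CPM in lean libraries, 4733 ± 1823 after 4 weeks and 8150 ± 1315 after 16 weeks. miR-125b-2-3p averaged 4355 ± 1097, 3878 ± 548 and 6385 ± 1401 CPM, and miR-187-5p 62.1 ± 13.9, 245 ± 179 and 185 ± 44.4 CPM. Neither limma nor edgeR called these 3 against lean, where edgeR did not test miR-187-5p. The passenger miR-21a-3p averaged 3476 ± 808, 1540 ± 2011 and 1547 ± 454 CPM, with no read in 4-week replicate 2.

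Markers of leukocytes were mostly listed at 0, under the limit given with miR-122-5p. Of 10 arms, 7 were at 0 in all 12 libraries, among them both arms of the myeloid miR-223 and of the pan-leukocyte miR-142a. The list's summed level ran from 4220 to 23720 CPM in lean libraries, from 3827 to 13793 after 4 weeks and from 16024 to 27267 after 16 weeks, nearly all of it miR-511-3p and miR-511-5p, from an intron of the macrophage gene Mrc1. miR-511-3p averaged 9740 ± 7709 CPM in lean libraries, 8783 ± 3589 after 4 weeks and 21216 ± 4566 after 16 weeks (SD, n = 4 per group).

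limma called neither miR-511 arm in any comparison, with adjusted p between 0.094 and 0.95, and 1 of the 2 had an unadjusted p under 0.05 at 16 weeks against either group, as did 50 of the 267 tested miRNAs against lean and 79 against 4 weeks. edgeR called miR-511-3p higher at 16 weeks than in lean (1.22, adjusted p = 0.025) and than at 4 weeks (1.78, adjusted p = 0.0022), and miR-511-5p lower at 4 weeks than in lean (-1.66, adjusted p = 0.036). The shares of all miRNAs that edgeR called in the same directions were 17.3%, 21.3% and 33.3%. miR-511-3p and miR-146a-5p also had the same highest lean library, replicate 4, at 20721 and 8997 CPM. That library had the lowest miR-101b-3p share of the lean libraries, at 54.8% of the CPM. It was also the highest lean library of miR-146a-3p, at 341 CPM, and how many other miRNAs peaked there was not counted. The part of cells other than hepatocytes in the miR-146a-5p rise was not tested.

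**Figure D5:**
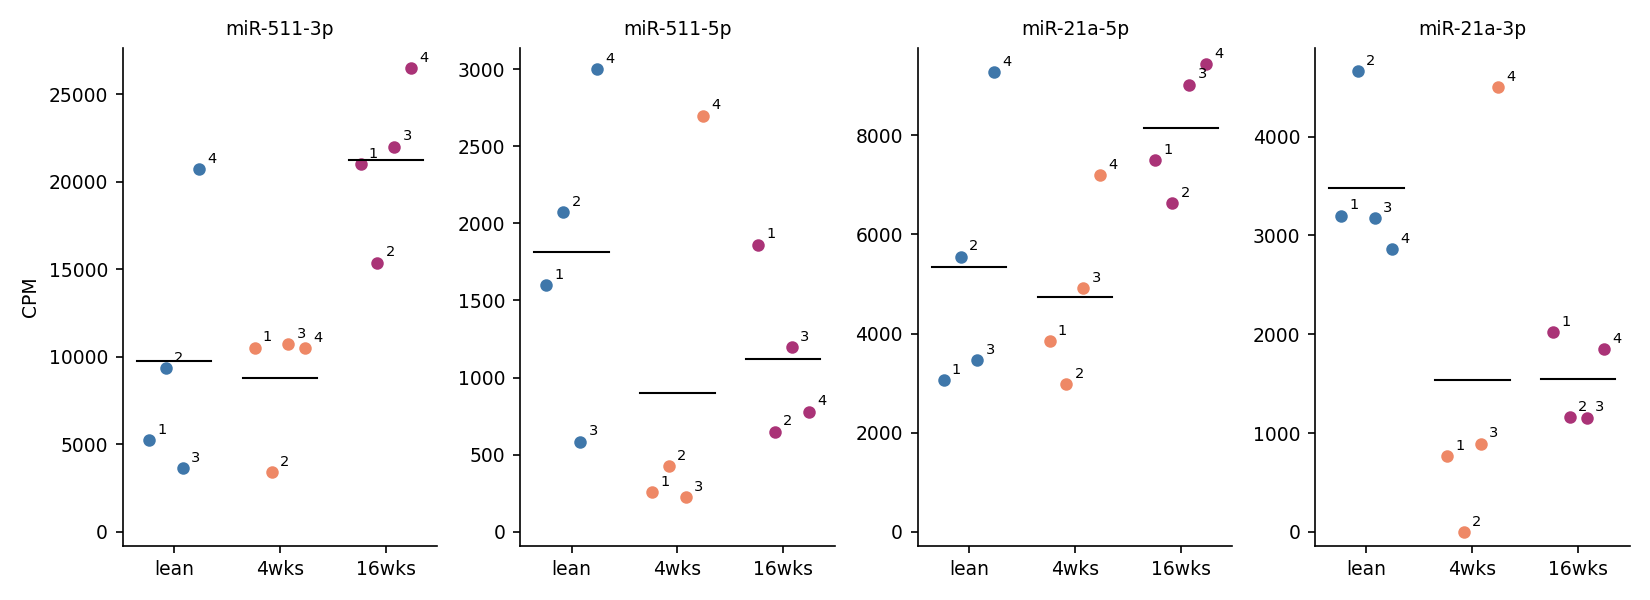
CPM (linear axes from 0) of miR-511-3p, miR-511-5p, miR-21a-5p and miR-21a-3p in the 12 libraries; points are libraries with replicate numbers and black lines are group means. miR-511-3p lies at 3635 to 20721 CPM in lean and at 15375 to 26487 CPM at 16 weeks, and the groups overlap in it.

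The lists of other cell types held few tested members. Of 9 endothelial and stromal arms 8 were at 0 throughout and none was tested. Of 5 red blood cell arms 1 was tested, miR-486a-5p, another of the 7 miRNAs with exchanged values. As deposited, limma called it lower at 16 weeks than at 4 weeks (-6.98, adjusted p = 0.015), with 4.12% of the tested miRNAs called lower. In the exchanged reading limma called it higher at 4 weeks than in lean (6.98, adjusted p = 0.0074), with 9.74% of the tested miRNAs called higher. Between the HFD groups limma then made no call of miR-486a-5p (-2.76, adjusted p = 0.30). One of its 4-week values, 65.3 CPM in replicate 3, is 0.292 of a read and not whole in any reading. The next most abundant members of the lists were sparse, with means over the 12 libraries of 50.0 CPM for miR-150-3p, 25.8 CPM for miR-194-1-3p, 8.96 CPM for miR-451a and 2.22 CPM for miR-126a-3p. Of 12 hepatocyte arms 3 were tested. miR-101b-3p and miR-802-3p were lower at 4 weeks than in lean (-1.36, limma adjusted p = 0.00065, and -1.94, limma adjusted p = 0.017) and higher at 16 than at 4 weeks (1.32, limma adjusted p = 0.00099, and 3.12, limma adjusted p = 0.0020), opposite to the 4-week direction of miR-146a-5p, and edgeR made the same calls. At 4 weeks against lean 11.6% of all tested miRNAs were called lower by limma and 33.3% by edgeR. From 4 to 16 weeks 6.37% and 21.3% were called higher. The third hepatocyte arm, miR-192-5p, was not called by limma (1.31 and 2.15 against lean, adjusted p = 0.21 and 0.11). edgeR called it higher at 16 weeks than in lean (2.25, adjusted p = 0.0024) and than at 4 weeks (1.57, adjusted p = 0.049). edgeR thus called all 3 hepatocyte arms higher from 4 to 16 weeks. It also called miR-802-3p higher at 16 weeks than in lean (1.23, adjusted p = 0.026), so 2 of the 3 hepatocyte arms rose with miR-146a-5p there by edgeR, against 17.3% of all miRNAs. The part of such shared changes in the rise of miR-146a-5p was not tested.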

How the data were processed

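The authors deposited CPM values, scaled to the miRNA reads of a library. Per the submitters' processing notes, cutadapt 1.13, edgeR 3.16.5 and the mm10 build were used; the aligner and the miRNA annotation are not given in the sources used here. The members and lists were chosen with earlier results of these data known. limma 3.58.1 (R 4.3.3, empirical Bayes with trend) was run on log2(CPM + 1) for miRNAs at or above 10 CPM in 4 or more of the 12 libraries, which shared 1 fit, two-sided, with Benjamini-Hochberg adjustment over 267 miRNAs. Of 2664 deposited nonzero values, 2617 (98.2%) came out as whole reads at a relative tolerance of 1e-06, and 2661 (99.9%) after the exchange. edgeR 4.0.16 (quasi-likelihood) and DESeq2 1.42.0 were run on the recovered reads as alternatives and called 44, 26 and 30, and 54, 38 and 32 miRNAs in the 3 comparisons of the completed reading. The fits were also run on simulated reads, with the same spread set for all miRNAs, and that outcome is not given here. The named miRNAs are the 4 arms, the miR-146b arms, called and up to 4 most abundant members of each list, the 5 closest by Pearson r to each guide arm, and miR-101b-3p.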

Additional observations from a re-analysis of the deposited data

Results flagged for a closer look

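Groups of 4 libraries were screened for a single value whose gap to the nearest one, divided by the group's range, passed Dixon's 95% critical value. Chance flags about 1 in 20 groups. miR-146a-3p at 223 CPM in 4-week replicate 3 stood apart because the other 3 libraries were at 0, and it is a single read. miR-155-5p at 5502 CPM in lean replicate 4 as deposited passed at 0.834. The same value of 5502 CPM passed for 16-week replicate 4 in the exchanged reading. In the completed reading, where 16-week replicates 2 and 3 are at 3622 and 5048 CPM, the 16-week group gave 0.596 and no value stood apart. miR-146a-5p in lean replicate 4, at 8997 CPM, gave 0.798 and did not pass.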

How the results depend on the processing

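miR-146a-5p kept its rise over lean at 4 weeks (1.39 to 2.40, adjusted p up to 0.035) and at 16 weeks (2.66 to 3.67, adjusted p up to 0.022) under all 15 alternatives run in each comparison. From 4 to 16 weeks it was called without miR-101b-3p (1.70), by quantile normalization (1.67, adjusted p = 0.022), edgeR (1.21, adjusted p = 0.019, miR-155-5p left out) and DESeq2 (1.06, adjusted p = 0.036). miR-146a-3p was called at 4 weeks against lean without miR-101b-3p (-5.97, adjusted p = 0.038), and its 16-week difference turned positive by quantile normalization (0.78, adjusted p = 0.88). miR-155-5p as deposited changed with the reading (5.23 at 4 weeks, 4.21 exchanged or 5.06 completed at 16 weeks). Between the HFD groups it was called with pseudocounts of 10 (-4.38) and 100 (-3.34), with no filter, a filter at 100 CPM or the replicate block (-5.23 each; adjusted p = 0.028 with the block, which changed no other call of these miRNAs). The block was not the main fit because same-numbered libraries correlated at -0.07 to 0.06 in their deviations from group means, and not every library correlated best with its own number. Exchanged or completed, the 4-week call was lost without miR-101b-3p (4.69), without the 5 most abundant miRNAs (5.48), and with no trend or with 2 groups alone (5.23), with adjusted p of 0.064 to 0.10. The 16-week rise was called by quantile normalization exchanged (4.63) and completed (5.25), and completed with pseudocounts of 10 (4.21) and 100 (3.18), by edgeR (3.28) and by DESeq2 (2.99). Completed, the difference from 4 to 16 weeks was positive without miR-101b-3p (0.75), without the 5 most abundant (0.065), by edgeR (0.40) and by DESeq2 (0.20), and never called. The cause was not tested.

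Leaving out 1 library at a time gave miR-146a-5p 2.08 to 2.85, 2.87 to 3.64 and 0.51 to 0.96 in the comparisons of 4 weeks with lean, 16 weeks with lean and 16 with 4 weeks, with no call changed. miR-146a-3p gave -6.67 to -4.07, -0.78 to 0.33 and 3.82 to 6.42. miR-155-5p gave 0.70 to 1.60, -5.30 to -2.04 and -6.33 to -3.07 as deposited, where the last was called without 16-week replicate 2 (-6.08, adjusted p = 0.044), 3 (-3.07, 0.039) or 4 (-6.33, 0.034). It gave 3.07 to 6.33, 2.04 to 5.30 and -1.60 to -0.70 exchanged, and 3.07 to 6.33, 2.90 to 6.16 and -0.71 to 0.44 completed. At 16 weeks against lean, the 7 miRNAs called by limma became 12 to 21 under 6 alternatives of limma and 3 to 11 with 1 library left out. With the reading changed too, edgeR and DESeq2 called 28 and 35 on the exchanged reads without miR-155-5p, and 26 and 38 on the completed reads. Without the 5 most abundant miRNAs the calls there were 3 higher and 9 lower, against 3 and 4. Between the HFD groups, 28 became 44 without 4-week replicate 4. Count fits of the exchanged reading left out miR-155-5p, since 2 values are not whole reads. Depth limits the 4-week group most, where 1 read is at least 223 CPM.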
